A study of Mus musculus with 6 samples.

Results

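The genes described here are the sugar, monocarboxylate and organic ion carriers, membrane proteins that move small nutrients, metabolites, vitamins, hormones and drugs into and out of cells. They were taken by name, as every gene of the deposited count table whose symbol belongs to Slc2, Slc5, Slc16, Slc22 or Slco, which gave 61 of 22354 genes. Slc16 held 14 of them, Slc2 13, Slc22 13, Slc5 11 and Slco 10, and 2 of the 61 carry pseudogene names (Slc2a4rg-ps and Slc22a13b-ps). The RNA came from 6 C57BL/6J mice, 3 labelled Smad4 knockout with the genotype Smad4ΔLrig1 and 3 labelled wild type (SMAD4+), called control here. Both groups had received tamoxifen 1 month earlier. The tissue was colon from which crypts had been removed with a chelator, scraped from the muscle and sequenced as single-end reads of 51 bases. Lrig1, named in the genotype, is expressed by progenitors at the crypt base. The recombinase that tamoxifen acts on, the deleted stretch of Smad4, and the age and sex of the mice are not stated in the sources.

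The Slc2 family (GLUT) moves hexoses down their gradient, while the Slc5 family (SGLT and relatives) couples sugars, short-chain monocarboxylates, iodide, choline or vitamins to sodium. The Slc16 family (MCT) carries lactate, pyruvate, ketone bodies, thyroid hormone, aromatic amino acids and carnitine, some members only with an accessory membrane glycoprotein, and the Slc22 and Slco families carry organic cations, organic anions, carnitine, prostaglandins and conjugated steroids. In the colon, epithelial cells take up butyrate made by bacteria through proton-linked and sodium-coupled monocarboxylate carriers and use it as their main fuel.

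Library totals were 18918880 to 25867997 counts, and a count of 3 corresponded to 0.116 to 0.159 CPM, a read count set against its library total. The CPM values of genes are TMM-scaled, with the library total also multiplied by a scaling factor. Smad4, the shared transducer of TGF-beta and BMP signals, measured 132, 153 and 111 CPM in the control libraries and 91.9, 102 and 59.0 CPM in the knockout libraries, with a log2 fold change of -0.64 ± 0.21 (SE) and an adjusted p of 0.338 in the edgeR quasi-likelihood test. All knockout libraries lay below all control libraries for Smad4, so the labels matched its direction, although the test did not pass the threshold of 0.05. The tissue is labelled stroma, but 12 epithelial markers summed to 23920 to 31960 CPM over the 6 libraries. The 7 fibroblast markers summed to 3.47 to 5.09 CPM in control and 8.50 to 13.0 in knockout. The carriers were therefore read from RNA rich in epithelial transcripts. The 6 B cell markers summed to 19.1 to 29.3 CPM in control and 54.9 to 124 in knockout, and 5 smooth muscle markers to 52.0 CPM in control replicate 1 and 14.1 to 17.2 CPM in the other libraries.

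The most abundant carriers included those that absorb monocarboxylates and glucose. Levels of different genes were compared as CPM per kilobase of exon, each given as mean ± SD over 3 libraries. Slc5a8, the sodium-coupled carrier of butyrate, lactate and other short monocarboxylates, stood at 117 ± 13.3 CPM per kilobase in control and 102 ± 17.3 in knockout. Slc16a1 (MCT1), the proton-linked carrier of the same substrates, stood at 92.8 ± 11.5 in control and 84.3 ± 5.97 in knockout. Slc22a18, an imprinted member of the organic cation family, stood at 90.1 ± 21.7 in control and 97.6 ± 0.568 in knockout. In control the ranges of mean ± SD of these leading carriers overlapped between neighbours in the order. In knockout that of Slc5a8 overlapped those of both others, while Slc22a18 stood above Slc16a1. Slc5a1 (SGLT1), which brings in glucose and galactose with sodium, followed at 67.1 ± 3.52 CPM per kilobase in control, and Slc2a1 (GLUT1), the widespread glucose carrier, at 43.3 ± 1.79. The next group was Slc16a5 (MCT6) at 32.3 ± 11.9 and Slc22a23 at 26.2 ± 2.66 CPM per kilobase in control, which did not differ beyond their spread, and then Slc5a9 (SGLT4) at 14.5 ± 2.20. Below it came Slc22a5 (OCTN2), which brings carnitine into cells, at 9.78 ± 1.27. Slco5a1 had the lowest level of the 40 tested carriers.

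**Figure D1:**
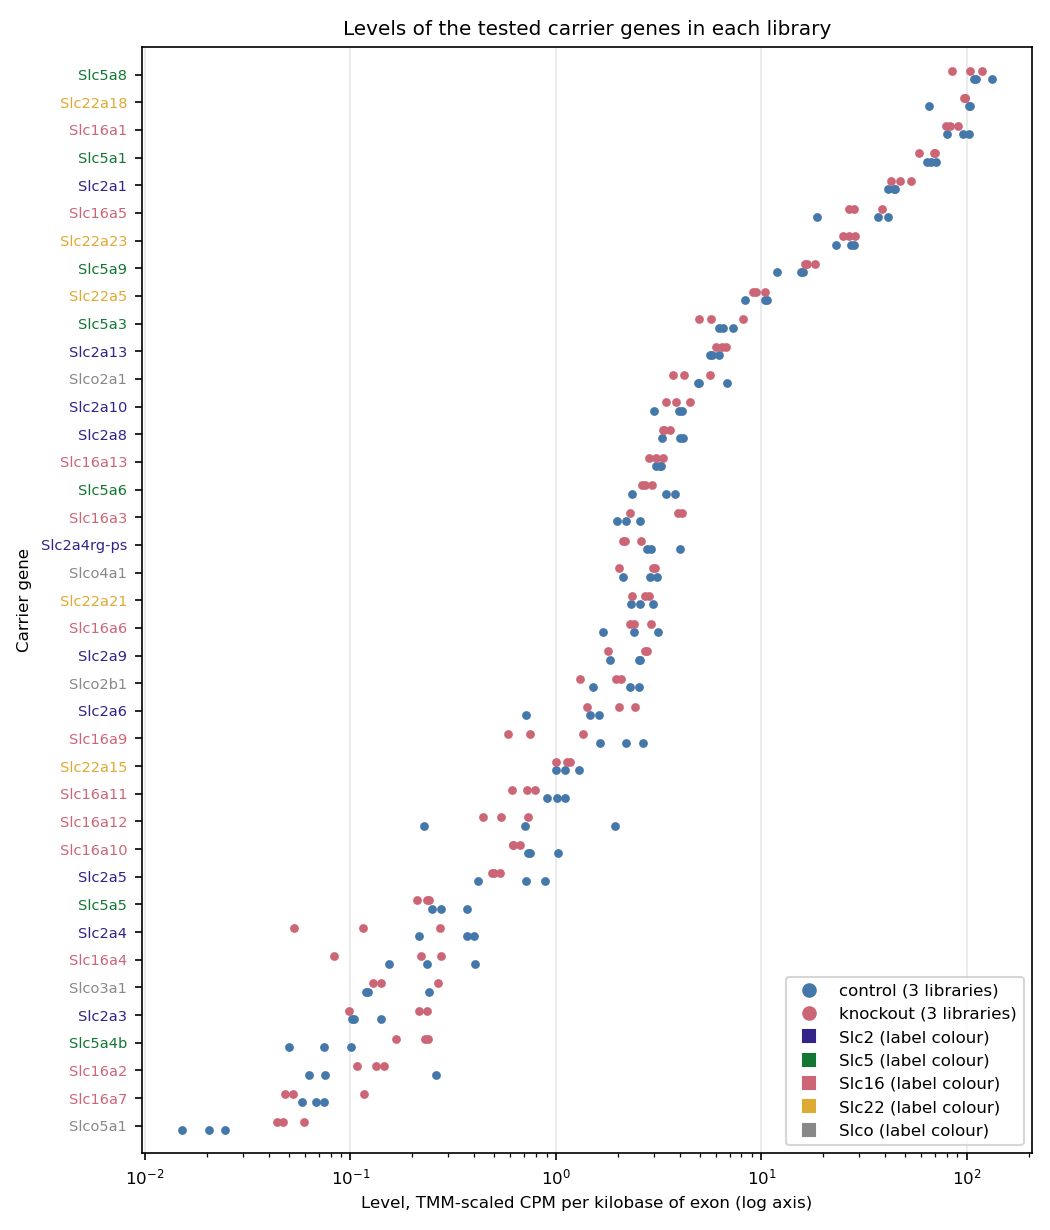
Levels of 39 of the 40 tested carriers in each library, as TMM-scaled CPM per kilobase of exon on a log axis, ordered by the mean of all 6 libraries, with a point per library in blue for control and red for knockout. Slc5a8, Slc22a18 and Slc16a1 head the order and Slco5a1 closes it, and for most genes the points of the groups intermingle.

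Summed over each family, the groups differed by less than the spread between libraries. The 61 carriers summed to 2413 ± 219.5 CPM in control and 2312 ± 202.1 in knockout, which is 95.8% of control and within the spread. Slc5 gave the greatest sum, with 1060 ± 86.9 CPM in control and 986 ± 136 in knockout. Slc16 summed to 586 ± 85.8 CPM in control and 542 ± 45.8 in knockout, and Slc22 to 407 ± 59.0 CPM and 422 ± 5.50 CPM in the same order. Slc2 summed to 257 ± 7.36 CPM in control and 275 ± 20.3 in knockout. Slco, the smallest, summed to 103 ± 18.5 CPM in control and 86.8 ± 8.78 in knockout. In every family the difference of the means was smaller than the larger SD of the pair.

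Of the 61 carriers, 40 passed the low-count filter and were tested. None reached an adjusted p of 0.05 in the edgeR quasi-likelihood test, where 0% of the 14180 tested genes did. At an unadjusted p under 0.05, 6 of 40 carriers were found (15.0%), against 8.54% of all tested genes. Of them, 3 were higher in knockout, Slc5a4b, Slco5a1 and Slc16a3 (background 5.19%), and 3 were lower, Slc16a9, Slc16a11 and Slc2a4rg-ps (background 3.35%). Slc2a4rg-ps was taken by its name, is a pseudogene and not a carrier itself, and is included in these counts and the next. Groups that did not overlap were found for 8 of 40 carriers, both directions together. All knockout libraries were higher for 3 of 40, against 959 of 14180 tested genes (6.76%). They were all lower for 5 of 40, against 924 of 14180 (6.52%). Without control replicate 1 the groups were apart, in either direction, for 14 of 41 tested carriers, against 30.3% of all tested genes. Without knockout replicate 2 they were apart for 14 of 40, against 23.5%. DESeq2 called 1 of 46 carriers with an adjusted p (background 2.18%), the edgeR exact test 1 of 40 (background 2.71%) and the authors' deposited table called 1 of 42 (background 2.86%). It was Slc16a9 each time. The counts of carriers are small, and none of these shares was tested against its background.

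Log2 fold changes of the carriers were mostly small. Of the 40, 16 lay above 0 and 24 below, with a median of -0.04, against -0.01 for all tested genes, of which 46.9% lay above 0. Within 0.25 of 0 on the log2 scale lay 62.5% of the carriers and 76.3% of all tested genes. By family, the median log2 fold change was -0.12 for 12 tested Slc16 genes, 0.08 for 10 Slc2 genes, -0.01 for 6 Slc22 genes, -0.09 for 7 Slc5 genes and -0.01 for 5 Slco genes. All 6 tested Slc22 genes lay within 0.25 of 0.

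**Figure D2:**
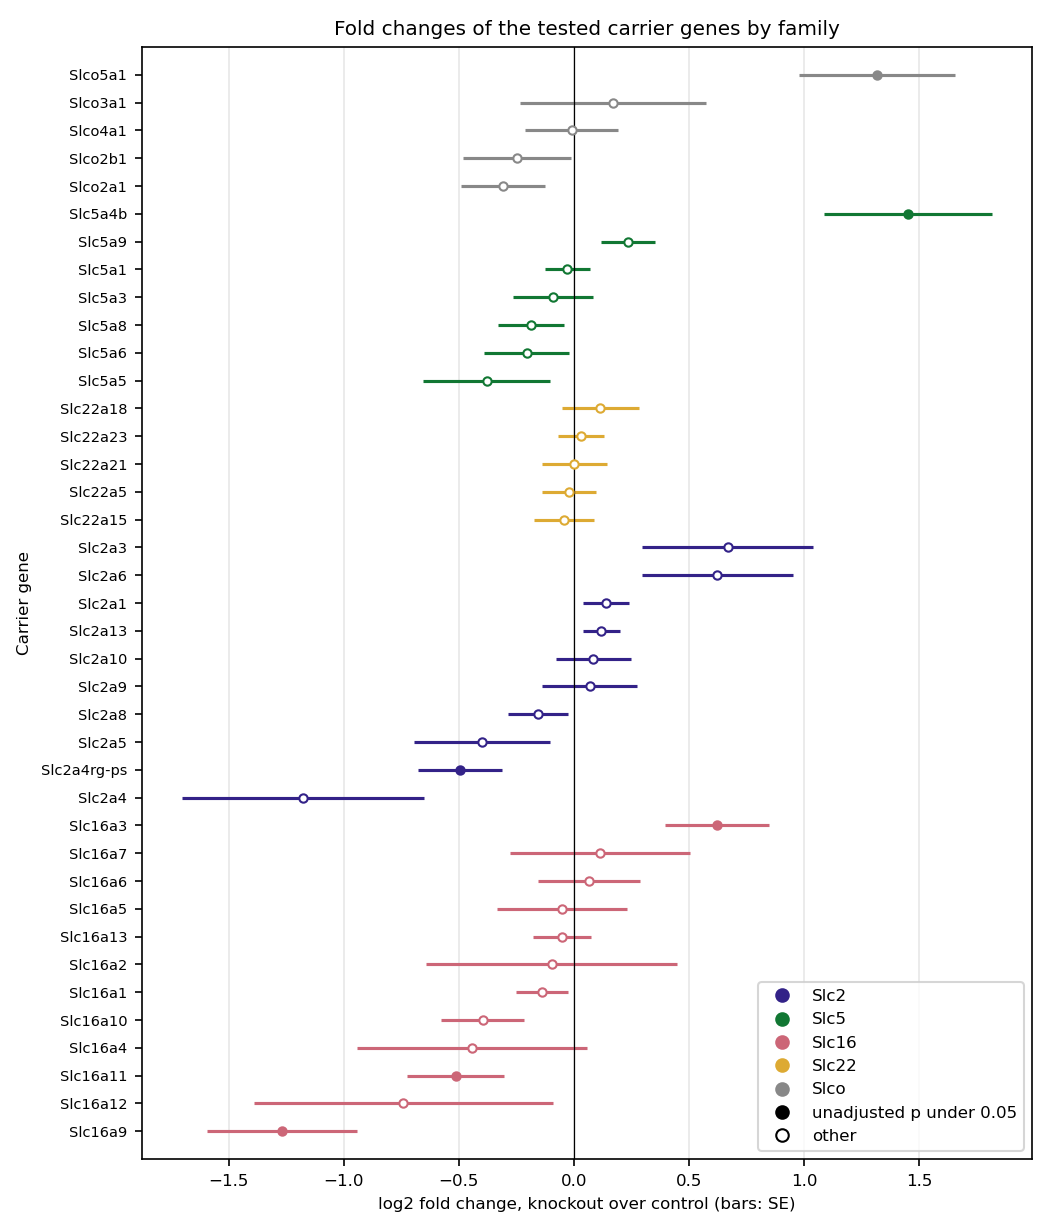
Log2 fold change of knockout over control for 39 of the 40 tested carriers, grouped by family, with bars of 1 SE and filled points for an unadjusted p under 0.05 in the edgeR quasi-likelihood test. The 6 filled points are Slc5a4b, Slco5a1 and Slc16a3 on the right and Slc16a9, Slc16a11 and Slc2a4rg-ps on the left, while every Slc22 gene shown sits near 0.

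Among the monocarboxylate carriers, the clearest difference was in Slc16a9 (MCT9), a carrier that moves carnitine out of cells in human, which was at 41.5% of control in knockout. Its gene lies on the plus strand of chromosome 10 at 70245100 to 70285968 (GRCm38). The promoter window of 300 bases, 250 before and 50 after a RefSeq start, lies on GRCm38.p6 at chr10:70245026-70245325, plus strand. That RefSeq start is downstream of the first base of the gene span given above. The window is shown because Smad4 is the gene deleted and Slc16a9 the carrier called by several tests. Capitals mark the letters CAGAC or GTCTG, the Smad box on either strand, and ACGTG or CACGT, the core of the hypoxia response element on either strand.
Slc16a9: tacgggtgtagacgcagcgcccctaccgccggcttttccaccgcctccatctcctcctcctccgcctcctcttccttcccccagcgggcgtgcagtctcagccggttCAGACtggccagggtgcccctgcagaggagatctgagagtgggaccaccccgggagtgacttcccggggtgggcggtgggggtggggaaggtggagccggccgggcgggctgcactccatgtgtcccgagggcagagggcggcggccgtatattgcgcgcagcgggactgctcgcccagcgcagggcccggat
This window holds 1 Smad box and no hypoxia core. The Smad box letters occur in 49.6% of all 32851 RefSeq promoter windows and in 20 of 31 windows of the carriers (64.5%), which belong to the 27 tested carriers with an entry, and the hypoxia core in 19.6% and in 7 of 31 (22.6%). A match describes the letters and is no measurement of binding.

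Slc16a9 had counts of 139, 192 and 212 in the control libraries and 63, 111 and 51 in the knockout libraries. These correspond to 6.37, 10.3 and 8.45 CPM in control and 2.896, 5.27 and 2.26 in knockout. Every knockout library was below every control library, and knockout replicate 2 came nearest to control. The mean was 8.38 ± 1.97 CPM in control and 3.48 ± 1.58 in knockout, a log2 fold change of -1.27 ± 0.33 (SE). The adjusted p was 0.201 in the edgeR quasi-likelihood test, 0.0100 in DESeq2 and 0.0163 in the edgeR exact test, so Slc16a9 fell in DESeq2 and the exact test and did not pass in the quasi-likelihood test, and the authors' deposited table gives a log2 fold change of -0.99 with an adjusted p of 0.0138. In bulk RNA such a difference cannot be told apart from fewer cells of a type that express the gene. The 12 epithelial markers summed to 23920, 31360 and 31960 CPM in control and 26190, 27660 and 26700 in knockout, ranges that overlap. The sum leans on Car1, which alone spanned 1169 to 5414 CPM in control. Chga was lower and Epcam higher in all knockout libraries, and the groups of the other markers overlapped. The part of epithelial cells in the result was not tested. Slc16a9 shares 491 exon bases with the predicted gene Gm7097 on the opposite strand, and whether counting used the strand is not stated.

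The call for Slc16a9 was not kept with every library left out. With control replicate 2 left out the adjusted p was 0.218 in DESeq2 and 0.186 in the edgeR exact test. With control replicate 3 left out these were 0.129 and 0.0926, with knockout replicate 1 left out 0.215 and 0.240, and with knockout replicate 3 left out 0.110 and 0.104. In these settings, in the order given, DESeq2 called 1.62%, 1.38%, 0.909% and 2.33% of all genes, against 2.18% with all libraries. The call was kept without control replicate 1 (0.00321 in DESeq2) and without knockout replicate 2 (1.11e-04 in DESeq2). The log2 fold change itself stayed between -1.70 and -1.03 over these omissions.

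Slc16a3 (MCT4), the exporter of lactate from glycolytic cells, had higher values in knockout but did not pass the threshold. Its gene lies on the plus strand of chromosome 11 at 120948480 to 120960868 (GRCm38). Its RefSeq promoter window on GRCm38.p6, chr11:120948817-120949116, plus strand, is shown for comparison, since Slc16a3 is a known target of hypoxia-inducible factor. This window is also placed on a RefSeq start and lies wholly inside the gene span given. Capitals mark the same letters as above.
Slc16a3: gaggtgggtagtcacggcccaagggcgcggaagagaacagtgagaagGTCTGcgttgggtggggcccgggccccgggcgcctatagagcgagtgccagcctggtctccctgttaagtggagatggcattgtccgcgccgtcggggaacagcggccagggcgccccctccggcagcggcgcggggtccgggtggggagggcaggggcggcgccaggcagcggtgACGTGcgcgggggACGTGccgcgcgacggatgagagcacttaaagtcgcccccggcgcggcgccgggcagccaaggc
The window holds 1 Smad box and 2 hypoxia cores. Slc16a3 measured 13.6, 11.7 and 10.5 CPM in control and 21.9, 12.2 and 20.9 in knockout. Knockout replicates 1 and 3 stood above all controls, while replicate 2 lay among them. The mean was 11.9 ± 1.54 CPM in control and 18.3 ± 5.38 in knockout, a log2 fold change of 0.62 ± 0.23 (SE), with an adjusted p of 0.449 in the edgeR quasi-likelihood test and 0.222 in DESeq2. Since replicate 2 was the library that overlapped, leaving it out sets the groups apart. The log2 fold change was then 0.85, and the adjusted p was 0.00102 in DESeq2, 0.00114 in the edgeR exact test and 0.279 in the quasi-likelihood test. In that setting DESeq2 called 1.43% of all genes and the exact test 1.97%. With any other library left out no test called Slc16a3, with an adjusted p of at least 0.101 in DESeq2 and 0.0981 in the exact test.

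**Figure D3:**
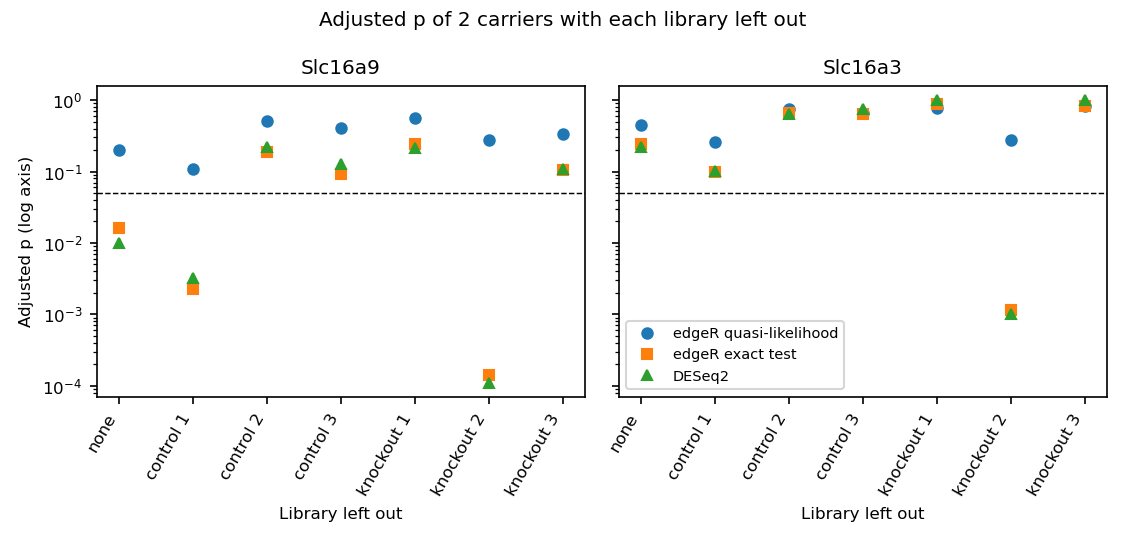
Adjusted p of Slc16a9 and Slc16a3 on a log axis, with all libraries and with each library left out, for the edgeR quasi-likelihood test, the edgeR exact test and DESeq2, with a dashed line at 0.05. Slc16a9 lies under the line in DESeq2 and the exact test with all libraries and without control replicate 1 or knockout replicate 2, and Slc16a3 only without knockout replicate 2.

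Knockout libraries were also lower for Slc16a11 and Slc16a10, by less. Slc16a11 (MCT11), a pyruvate carrier in human, lies on the plus strand of chromosome 11 at 70212752 to 70216417, next to Slc16a13 (MCT13) on the minus strand at 70216789 to 70221064 (GRCm38). Slc16a11 measured 2.84, 2.31 and 2.59 CPM in control and 2.02, 1.85 and 1.55 in knockout, groups that did not overlap, with a log2 fold change of -0.51 ± 0.21 (SE) and an adjusted p of 0.547 in the edgeR quasi-likelihood test. Its neighbour Slc16a13, named for its position after its values were seen, had 8.28 ± 0.228 CPM in control and 7.99 ± 0.648 in knockout, with overlap. Slc16a10 (TAT1), a carrier of aromatic amino acids, measured 7.52, 5.53 and 5.38 CPM in control and 4.92, 4.56 and 4.53 in knockout. The groups did not overlap, and its log2 fold change was -0.40 ± 0.18 (SE) with an adjusted p of 0.621 in the edgeR quasi-likelihood test. With a library left out the log2 fold change of Slc16a10 was -0.49 to -0.22, nearest 0 without control replicate 1.

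The abundant monocarboxylate carriers showed no difference beyond their spread. Slc16a1 measured 354, 452 and 426 CPM in control and 352, 403 and 365 in knockout, with a log2 fold change of -0.14 ± 0.11 (SE). Slc16a5 measured 69.2, 137 and 152 CPM in control and 104, 144 and 98.4 in knockout, with control replicate 1 the lowest of all 6 libraries. Slc16a6 (MCT7), an exporter of ketone bodies from zebrafish liver, measured 15.4, 11.8 and 8.29 CPM in control and 14.1, 11.7 and 11.2 in knockout, and 1052 of its exon bases overlap Amz2 on the opposite strand. Of the glycoproteins that bring these carriers to the membrane, Bsg (basigin, partner of Slc16a1 and Slc16a3) stood at 851 ± 71.7 CPM in control and 882 ± 21.04 in knockout. Emb (embigin, partner of Slc16a7) measured 1.38, 1.02 and 1.51 CPM in control and 3.402, 2.66 and 1.95 in knockout, all higher than control. Its log2 fold change was 1.02 ± 0.28 (SE), with an adjusted p of 0.238 in the edgeR quasi-likelihood test and 0.155 in DESeq2. Embigin is also found on blood cells, and all 6 B cell markers and all 5 T cell markers had a log2 fold change above 0, with T cell sums of 12.8 to 15.3 CPM in control and 17.1 to 30.8 in knockout. The part of these cells in the result was not tested.

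**Figure D4:**
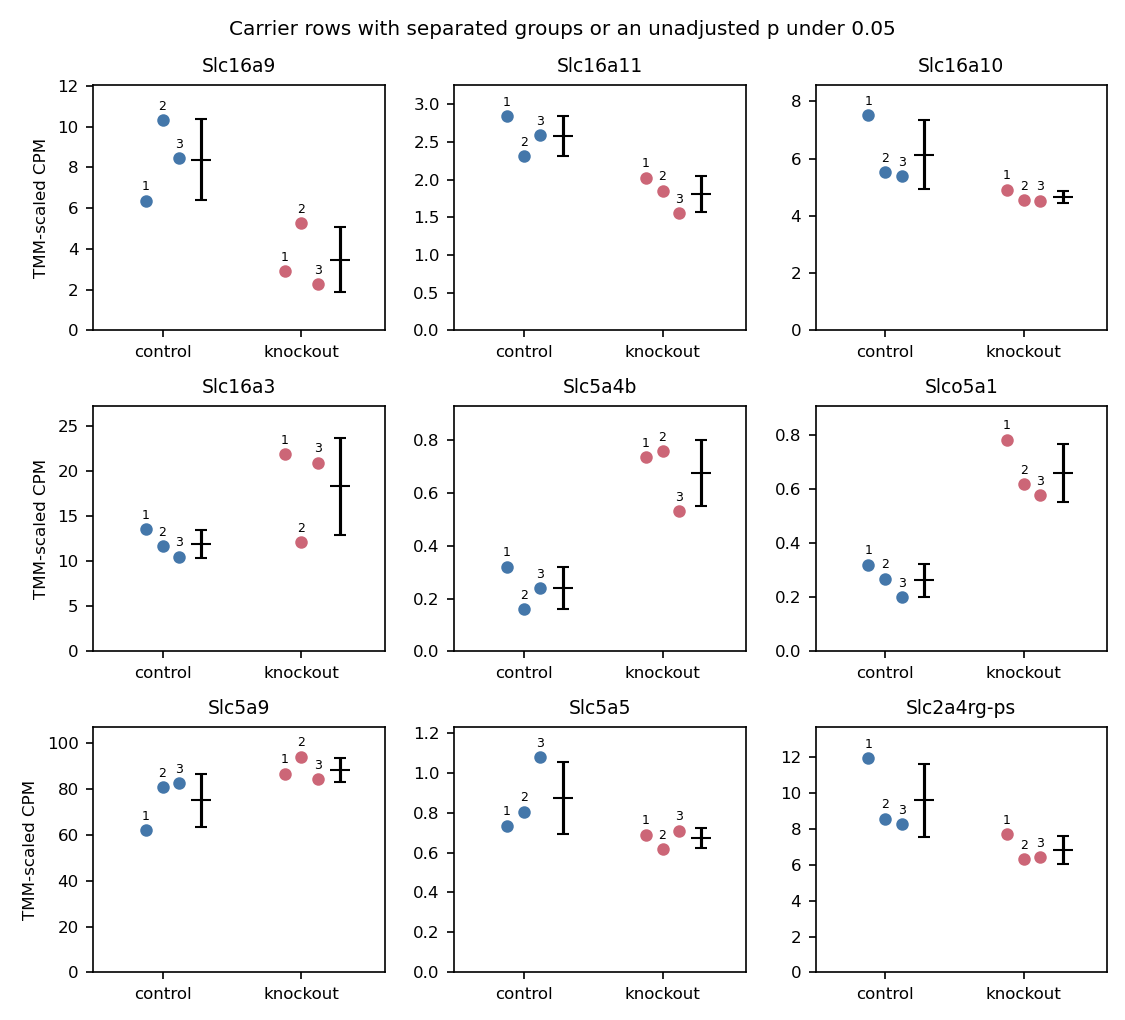
TMM-scaled CPM of the 9 genes of the list, the pseudogene Slc2a4rg-ps included, with an unadjusted p under 0.05 or with separated groups. Each library is a numbered point, with the mean and SD over 3 libraries beside them. Slc16a9 has means of 8.38 and 3.48 CPM, Slc16a3 overlaps through knockout replicate 2, and Slc5a4b and Slco5a1 stay under 1 CPM.

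In the sodium-coupled family, the groups overlapped for Slc5a8, Slc5a1 and Slc5a3, and among the 7 tested genes the scarce Slc5a4b had the log2 fold change farthest from 0. Slc5a8 measured 574, 703 and 587 CPM in control and 554, 635 and 450.3 in knockout, overlapping groups with a log2 fold change of -0.19 ± 0.14 (SE). Slc5a1 measured 274, 291 and 262 CPM in control and 283, 289 and 239 in knockout, with a log2 fold change of -0.03 ± 0.10 (SE). Slc5a3, the carrier of myo-inositol, had 72.8 ± 6.20 CPM in control and 68.4 ± 17.9 in knockout, and shares 159 exon bases with Mrps6 on the same strand. The groups overlapped for these 3 carriers. Slc5a9, a carrier of mannose and related sugars, measured 61.9, 80.7 and 82.6 CPM in control and 86.6, 94.2 and 84.3 in knockout. Its groups just failed to overlap, control replicate 1 was the lowest, and the log2 fold change was 0.24 ± 0.12 (SE) with an adjusted p of 0.677 in the edgeR quasi-likelihood test. Slc5a5, the sodium-iodide symporter, measured 0.733, 0.805 and 1.08 CPM in control and 0.690, 0.617 and 0.710 in knockout, separated by little, with a log2 fold change of -0.38 ± 0.28 (SE).

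Slc5a4b, of the low-affinity SGLT3 branch, had counts of 7, 3 and 6 in control and 16, 16 and 12 in knockout. All knockout counts were above all control counts, at a level close to the limit of detection. The mean was 0.240 ± 0.0799 CPM in control and 0.676 ± 0.125 in knockout, with a log2 fold change of 1.45 ± 0.36 (SE). Its adjusted p was 0.189 in the edgeR quasi-likelihood test, 0.0930 in the edgeR exact test and 0.508 in DESeq2. Its close copy Slc5a4a, which lies on the same chromosome and could share reads with it, had 0 to 3 counts per library.

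Among the facilitative sugar carriers, the abundant forms did not separate the groups. Slc2a1 measured 154, 145 and 157 CPM in control and 149, 188 and 166 in knockout, with a log2 fold change of 0.14 ± 0.10 (SE). Slc2a13, a proton-coupled carrier of myo-inositol, had 49.1 ± 2.62 CPM in control and 53.3 ± 2.95 in knockout. Slc2a10 had 13.2 ± 2.20 CPM in control and 14.0 ± 1.91 in knockout, and Slc2a9, the urate carrier, 11.8 ± 2.11 CPM and 12.4 ± 2.79 CPM in the same order. The groups of these 4 genes overlapped. Slc2a4rg-ps, a unitary pseudogene of a regulator of Slc2a4 and not a carrier itself, measured 11.96, 8.59 and 8.29 CPM in control and 7.72, 6.31 and 6.43 in knockout, with no overlap. Its log2 fold change was -0.49 ± 0.18 (SE) with an adjusted p of 0.471 in the edgeR quasi-likelihood test. With a library left out it was -0.59 to -0.30, nearest 0 without control replicate 1.

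Slc2a3 and Slc2a6 were named after their values were seen, because leukocytes express both. Slc2a3 (GLUT3) measured 0.733, 1.02 and 0.757 CPM in control and 1.56, 1.71 and 0.710 in knockout, with knockout replicate 3 below every control library. Slc2a6 measured 2.29, 4.73 and 5.22 CPM in control and 7.82, 4.56 and 6.48 in knockout, overlapping through knockout replicate 2. Their log2 fold changes were 0.67 ± 0.37 and 0.62 ± 0.33 (SE), with adjusted p-values of 0.734 and 0.706 in the edgeR quasi-likelihood test. The 7 macrophage markers summed to 15.95, 8.11 and 8.17 CPM in control and 23.0, 24.1 and 11.8 in knockout. Within knockout the sum was lowest in replicate 3, as was Slc2a3, and highest in replicate 2, where Slc2a6 was lowest. Within control the sum was highest in replicate 1, where both genes were lowest. The part of these cells in the values was not tested.

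The organic cation and carnitine carriers stayed closest to control. Slc22a23, whose substrate is not known, measured 148, 179 and 175 CPM in control and 160.0, 183 and 170.1 in knockout. Slc22a18 measured 111, 176 and 173 CPM in control and 167, 166 and 165 in knockout. Apart from control replicate 1, its libraries lay within a narrow range, and its log2 fold change was 0.12 ± 0.17 (SE). Slc22a5, the main carnitine uptake carrier, had 30.05 ± 3.90 CPM in control and 29.6 ± 2.03 in knockout, a log2 fold change of -0.02 ± 0.12 (SE). The SE of the log2 fold change was 0.10 to 0.17 for these 3 genes. The uptake carrier of carnitine and its exporter Slc16a9 were not tested against each other.

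Among the organic anion carriers, Slco2a1, which takes up prostaglandins for breakdown, was the most abundant by CPM. It measured 66.7, 67.3 and 92.0 CPM in control and 56.6, 75.9 and 50.1 in knockout, overlapping through knockout replicate 2, with a log2 fold change of -0.31 ± 0.18 (SE) and an adjusted p of 0.759 in the edgeR quasi-likelihood test. Slco4a1 had 12.9 ± 2.48 CPM in control and 12.8 ± 2.71 in knockout, and Slco2b1, a carrier of conjugated steroids, 12.6 ± 3.15 CPM and 10.6 ± 2.45 CPM in the same order. Slco3a1 had 1.36 ± 0.588 CPM in control and 1.51 ± 0.642 in knockout. None of these separated the groups. Slco5a1, an orphan member, had counts of 7, 5 and 5 in control and 17, 13 and 13 in knockout, with all knockout counts above all control counts. Its mean was 0.263 ± 0.0610 CPM in control and 0.658 ± 0.108 in knockout, a log2 fold change of 1.32 ± 0.34 (SE), with an adjusted p of 0.200 in the edgeR quasi-likelihood test and 0.620 in DESeq2.

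The 21 carriers that did not pass the filter had mean counts of 0.167 to 16 per library. They include Slc2a2 (GLUT2) with 1 count in all 6 libraries, and Slc5a11, Slc22a2 and Slc16a14, also with 1 count each, named after their values were seen. Of those with a mean count of at least 5, Slc16a8 (MCT3) had 8 to 9 counts in control and 8 to 13 in knockout, Slc2a7 had 6 to 8 and 3 to 13, and Slc22a17 had 7 to 8 and 0 to 8. Slc22a13b-ps had 7 to 9 counts in control and 4 to 5 in knockout. The filter left these genes out of the edgeR test, and no difference is read from such counts.

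The fifth of these, Slc5a7, the high-affinity choline carrier of cholinergic neurons, followed a single control library. It had counts of 54, 8 and 12 in control and 2, 13 and 7 in knockout, so that control replicate 1 stood far above the rest. Slc16a12 (MCT12), a creatine carrier named after its values were seen, measured 8.07, 2.95 and 0.956 CPM in control and 1.84, 3.04 and 2.26 in knockout. Its log2 fold change was -0.74 ± 0.65 (SE) with all libraries and 0.32 without control replicate 1. Slc2a4 (GLUT4), the insulin-responsive glucose carrier of muscle and fat, also named after its values were seen, measured 1.28, 0.752 and 1.39 CPM in control and 0.184, 0.949 and 0.399 in knockout. For Slc2a4, control replicate 1 did not stand apart, and the log2 fold change was -1.18 ± 0.53 (SE) with an adjusted p of 0.604 in the edgeR quasi-likelihood test. Knockout replicate 2 alone of its group lay among the controls, so leaving it out sets the groups apart. The log2 fold change was then -1.96, with an adjusted p of 0.0398 in the edgeR exact test, 0.225 in DESeq2 and 0.346 in the quasi-likelihood test. The exact test called 1.97% of all genes in that setting, and did not call Slc2a4 with any other library left out. The 5 smooth muscle markers summed to 52.0, 14.7 and 17.2 CPM in control and 14.9, 15.2 and 14.1 in knockout. None of the 5 had a log2 fold change above 0, and Myh11 and Cnn1 were at 0 in some libraries. The 4 glia and neuron markers found, of 5 listed, summed to 0.591 to 1.38 CPM in control, highest in replicate 1, and 0.444 to 0.827 CPM in knockout. The part of these cells in the carrier values was not tested.

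**Figure D5:**
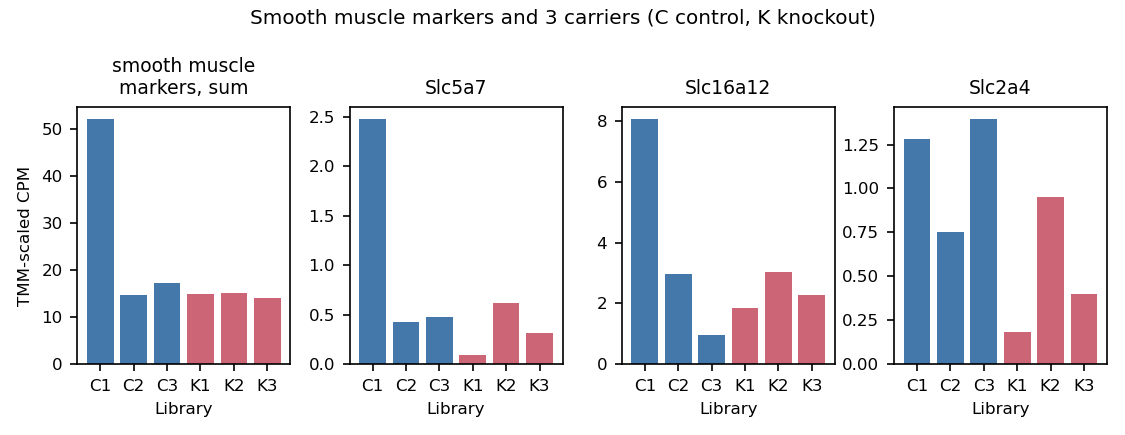
TMM-scaled CPM per library of the 5 smooth muscle markers as a sum and of Slc5a7, Slc16a12 and Slc2a4, with control libraries C1 to C3 in blue and knockout libraries K1 to K3 in red, each panel with its own axis from 0. Control replicate 1 is the tallest bar for the marker sum, Slc5a7 and Slc16a12, and not for Slc2a4.

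Accessory proteins, regulators and enzymes that act on the same substrates were read from a list of 43 genes, of which 42 were found and 38 tested. Of these, 16 lay above 0 and 22 below, with a median log2 fold change of -0.07, against -0.01 for all tested genes. None was called by the edgeR quasi-likelihood test (background 0%), and 2 were called by DESeq2 (background 2.18%). In the quasi-likelihood test 4 of 38 had an unadjusted p under 0.05, against 8.54% of all tested genes, and 1 of them, Emb, was higher. These shares were not tested against their background. Mlxipl (ChREBP), a transcription factor that responds to sugar inside the cell, measured 34.7, 18.3 and 21.6 CPM in control and 13.4, 11.96 and 12.4 in knockout. All knockout libraries were below all controls, and control replicate 1 was the highest. The log2 fold change of Mlxipl was -0.98 ± 0.23 (SE), with an adjusted p of 0.159 in the edgeR quasi-likelihood test, 0.00295 in DESeq2 and 0.00492 in the edgeR exact test. Dio1, the deiodinase that acts on thyroid hormone inside the cell, measured 39.9, 46.0 and 64.6 CPM in control and 28.4, 35.8 and 26.7 in knockout, also without overlap. Its log2 fold change was -0.73 ± 0.19 (SE), with an adjusted p of 0.212 in the edgeR quasi-likelihood test, 0.0206 in DESeq2 and 0.0194 in the exact test. Both thus fell in DESeq2 and the exact test but not in the quasi-likelihood test. The DESeq2 call of Mlxipl was lost without knockout replicate 2 (adjusted p = 0.0706), and its exact test call also without knockout replicate 1 (adjusted p = 0.0550). For Dio1 both calls were lost without control replicate 2 or 3 or knockout replicate 1 or 3, where the adjusted p was 0.0785 to 0.296 in DESeq2. Ppargc1a, a coactivator of mitochondrial genes, had 43.0 ± 4.10 CPM in control and 33.5 ± 6.28 in knockout, with overlap and an adjusted p of 0.513 in the edgeR quasi-likelihood test.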

How the data were processed

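RNA-seq was measured in 6 libraries, 3 knockout and 3 control, from separate mice. The deposited table holds whole-number counts per gene, not normalized, and the authors' columns of a comparison: mean normalised signal, log2 fold change, its standard error and statistic (score columns), p-value and adjusted p-value. The series design names TopHat 2.1.0, mm10, samtools 1.3.1, HTSeq 0.5.4p5 and edgeR 3.4.2, while per the submitters' processing notes Bowtie 0.12.2, mm8 and mm10 were used, and the deposited comparison columns are named as DESeq2 names them. These accounts differ, and strand handling is not stated.

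Counts were scaled by TMM, filtered with filterByExpr and tested with edgeR 4.0.16 (glmQLFTest, R 4.3.3) on group alone, with Benjamini-Hochberg adjustment over all 14180 tested genes and a threshold of 0.05. The SE was obtained as log2 fold change over the root of F. A two-sided permutation of 3 against 3 libraries cannot give a p below 0.1. Floors of 3 counts cover counting error only. Coordinates and exon lengths came from GENCODE M21 (GRCm38), where all 61 gene IDs were found, 12 of them sharing exon bases with another gene, and promoters from RefSeq (GRCm38.p6).

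Genes were named if called by the quasi-likelihood test, DESeq2 or the exact test, if at an unadjusted p under 0.05 or with groups apart, if among the 4 with the highest mean CPM of their family, if untested with a mean count of at least 5, or, in the list of partners, if among the 4 smallest p-values or at an unadjusted p under 0.05, with Smad4 as the check. A gene that the rule takes, 1 of the 61, enters the counts and sums and is not reported here by name. The members and lists were chosen with earlier results of these data known. Alternatives were other scalings, other count filters, the exact test of edgeR, DESeq2 1.42.0, voom in limma 3.58.1, the replicate number as a block, and each library left out in turn.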

Additional observations from a re-analysis of the deposited data

How the results depend on the processing

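The count of carriers past the threshold was 0 with all scalings and filters, limma-voom and the replicate block, 1 with DESeq2 and 1 with the edgeR exact test, and 0 to 3 with a library left out. With DESeq2 and without knockout replicate 2 it was 2 of 48 (Slc16a3 and Slc16a9), against 1.43% of all genes. With the exact test and the same omission it was 3 of 40 (also Slc2a4), against 1.97%. For Slc16a3 and Slc2a4 this was the knockout library that overlapped with control, so leaving it out sets the groups apart. Without control replicate 1 the count was 1 of 38 with DESeq2, against 3.48%, and 1 of 41 with the exact test, against 4.25%. Over all genes the quasi-likelihood test of edgeR called 17 without control replicate 1 and 266 without knockout replicate 3, and 0 carriers among them. The counts of groups apart with a library left out were 10 to 14, and the shares of all tested genes 20.1% to 30.3%. The lowest count was 10 of 42 carriers without control replicate 3, against 22.7% of all tested genes. The highest was 14, of 41 without control replicate 1 (against 30.3%) and of 40 without knockout replicate 2 (against 23.5%). Under the replicate block the log2 fold change of Slc16a9 was -1.32 with an adjusted p of 0.124 in edgeR. Correlations of deviations between same-numbered libraries were -0.05, -0.14 and 0.14, and between differently numbered libraries -0.11 to 0.17. With 3 libraries per group these values cannot decide whether the numbers pair the mice. Of 465 values for 31 single genes, 432 kept direction and side of the threshold, 6 passed it, and 27 turned sign. For Slc16a5 the log2 fold change was 0.0107 with limma-voom and 0.0071 under the replicate block, and for Slco4a1 it was 0.0019 without a filter. With a library left out, log2 fold changes ranged from -0.32 to 0.16 for Slc16a5, -0.15 to 0.16 for Slco4a1, -0.14 to 0.31 for Slc16a6, -0.0432 to 0.172 for Slc2a10, -0.0693 to 0.246 for Slc2a9, -0.0682 to 0.222 for Slc22a18, -0.0453 to 0.0835 for Slc22a23, -0.120 to 0.0412 for Slc22a5, -0.0776 to 0.0643 for Slc5a1, -0.319 to 0.0507 for Slc5a3 and -0.23 to 0.56 for Slco3a1. For each of these the main log2 fold change was smaller in size than its SE, with Slco3a1 farthest from 0 at 0.17 ± 0.40 (SE). The cause was not tested. Depth limits the 21 untested carriers and those under 1 CPM.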
